A study of Mus musculus with 3 samples.

Results

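The share of ribosomal protein transcripts was followed over brain areas in spatial transcriptomics of mouse coronal hemisphere sections. The measure was the percent of the UMIs (unique molecular identifiers, which count captured mRNA molecules) of a spot that the authors assigned to ribosomal genes. It was taken for every spot listed, 8549 of 8549, of which 2881 came from CON, 2828 from RES and 2840 from SUS. A second reading used the 2497 spots of 10000 to 15000 UMIs, 862 from CON, 833 from RES and 802 from SUS, so that areas were compared at like depth. The values are called the ribosomal protein share below and are given as percent of UMIs, with differences in percentage points. The total they were divided by is not known, and depth below means the deposited UMI count of a spot.

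Ribosomal proteins build the large (Rpl genes) and small (Rps genes) subunits of the ribosome, the machine that translates mRNA. Their mRNAs are among the most abundant in most cells and carry a run of pyrimidines at their start, through which the mTOR pathway adjusts their translation to nutrients and growth signals. In neurons they also occur in dendrites and axons, away from the cell body. In the GENCODE annotation of the mouse genome (GRCm38), 86 protein-coding genes have symbols that start with Rpl or Rps, apart from 10 genes of the Rps6k kinases, which are not ribosomal proteins. Another 307 symbols of that form are pseudogenes, whose sequences can be near copies of the mRNAs. No source used here gives the list of genes behind the deposited share or the total it was divided by, and whether pseudogene reads entered it is unknown. Multiplied by the deposited UMI count of the spot, the share gave a whole number, within 0.001, in only 0.211% of spots, so that total was not the deposited count, and the values are compared only as percentages.

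Per the labels, all animals were male C57BL/6J mice of 8 weeks, and the deposited table marks all 3 groups as WT. RES (resilient) and SUS (susceptible) mice had gone through 10 days of chronic social defeat by larger CD-1 males and were told apart by a social interaction ratio above or below 1, while CON mice were housed across a partition from another C57BL/6 mouse. Tissue was taken 1.5 h after the last exposure and cut at 10 μm from the left hemisphere, with 1 section per condition. A Visium spot is a small disc of tissue that can hold several cells of different types, so fewer cells of a type and less RNA per cell cannot be told apart.

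With 1 section per condition no test between conditions could be made, and the animal and the section cannot be told apart from the condition. Each difference below compares sections, and the 95% interval of a median covers the sampling of spots within a section only. Neighbouring spots were alike (their correlation is given with the place of the spots), so these intervals are too narrow. For CON, RES and SUS in that order, spots had a median of 12912, 10054.5 and 10947.5 UMIs. The sections also stood apart in their median mitochondrial share, at 10.47%, 9.64% and 8.03%, and in their median red blood cell share, at 0.0154%, 0.0714% and 0.281%. Counts of single genes were not analysed here, so the area labels were taken as the authors gave them and were not checked against marker genes.

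Over all spots the median ribosomal protein share was 7.42% (95% interval 7.38 to 7.46), and spots ran from 4.27% to 18.3%. The section medians lay close together, at 7.50% (7.43 to 7.58) for CON, 7.30% (7.23 to 7.36) for RES and 7.47% (7.40 to 7.55) for SUS. The middle spots of a section spread much wider than that, with quartiles of 6.75% and 9.14% (CON), 6.52% and 8.67% (RES), and 6.63% and 8.95% (SUS). Much of this spread followed the area labels. Differences between the 17 labelled areas made up 60.7% of the variance of the spots of CON, 61.6% of RES and 65.9% of SUS. The paper assigned spot clusters to regions with marker genes as well as histology and an atlas, so the labels are not independent of expression. In all 3 sections a band of high shares followed the arc of the fiber tracts and a broad field of raised shares covered the hypothalamus at the base.

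**Figure D1:**
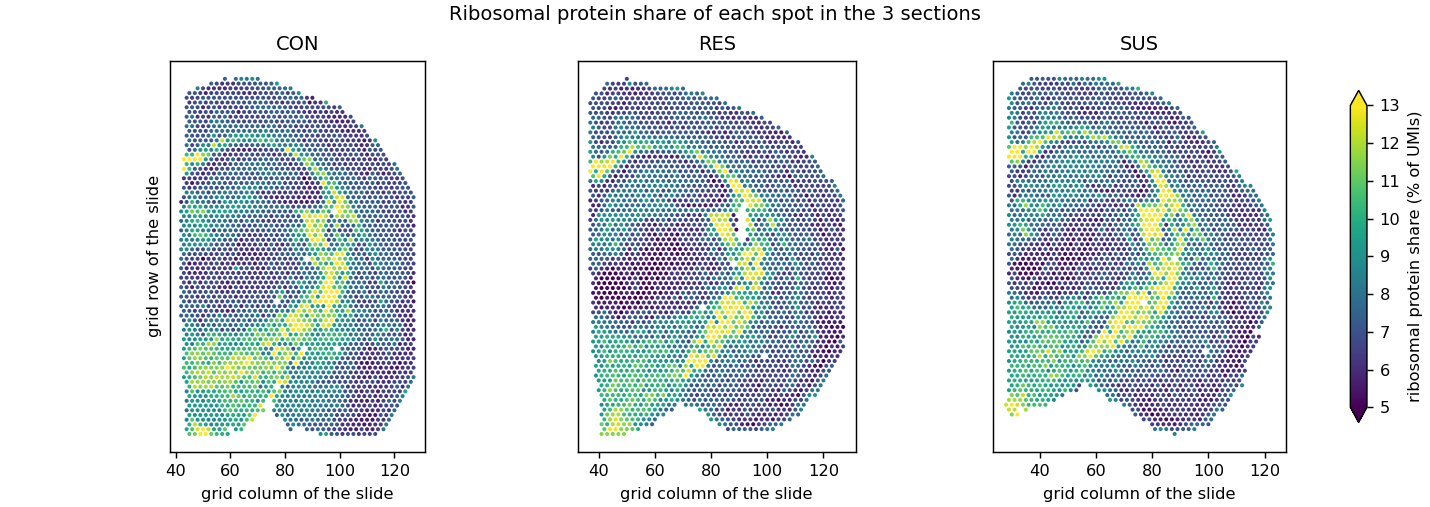
Each point is a spot at its grid row and column on the slide, coloured by its ribosomal protein share in percent of UMIs; the colour scale ends at 5% and 13%. The highest shares trace the fiber tracts and the lower left field of the hypothalamus in the CON, RES and SUS sections.

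Fiber tracts (FB), the white matter that holds myelinated axons with oligodendrocytes and few neuronal cell bodies, had the highest ribosomal protein share. The FB medians were 10.9% over 341 spots of CON, 11.2% over 286 of RES and 11.99% over 267 of SUS, a mean of 11.3 ± 0.586% (SD, n = 3 sections, of 3 different conditions). Hypothalamus (HY), which houses the neurosecretory cell groups that release peptide hormones, came next. Its medians were 10.46% in CON, 9.99% in RES and 9.94% in SUS, a mean of 10.1 ± 0.286%. FB lay above HY in all 3 sections, by 1.20 ± 0.827 percentage points, and HY lay above the next area in all 3, by 1.83 ± 0.411 percentage points.

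The dentate gyrus (DG) and the cerebral nuclei (CNU) formed the next level. DG, whose granule cells are packed in a dense layer, had medians of 8.18%, 8.29% and 8.45% in CON, RES and SUS. CNU, which includes the striatum and pallidum, had 8.46%, 7.69% and 8.18%. The order of these neighbours changed with the section, since DG lay above CNU in 2 of 3, and their mean difference of 0.198 percentage points was smaller than its SD of 0.446. CNU lay above the next area, CA1, in all 3 sections, by 0.765 ± 0.617 percentage points.

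The cortical areas, the amygdala (AMY), the pyramidal fields of the hippocampus and the thalamus were crowded together below 8%. The means over sections were 7.34 ± 0.446% in CA1, 7.13 ± 0.0864% in the posterior parietal area (PTL), 7.11 ± 0.269% in the retrosplenial area (RSP), 7.02 ± 0.144% in the auditory area (AUD) and 6.998 ± 0.0691% in AMY. Primary somatosensory cortex (SSp) followed at 6.92 ± 0.123%, CA3 at 6.88 ± 0.178%, the label TEP (temporal association, entorhinal and perirhinal areas) at 6.85 ± 0.266% and the thalamus (TH) at 6.85 ± 0.366%. From CA1 to the olfactory area (OLF), no area lay above the next one in all 3 sections, so neighbours in this order could not be ranked. Areas farther apart could in part, since PTL lay above SSp, CA3, TEP, TH and OLF in all 3. OLF was last among the 14 areas with at least 20 spots in every section, at 6.55% in CON, 6.56% in RES and 6.25% in SUS, a mean of 6.46 ± 0.178%. The highest and the lowest mean, those of FB and OLF, differed by 4.88 ± 0.758 percentage points, a ratio of 1.76. Of the 91 pairs of these areas, 62 kept their order in all 3 sections.

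The other 3 labels had too few spots for this order. The lateral ventricle (LV) held 14, 9 and 10 spots in CON, RES and SUS, with medians of 8.12%, 10.1% and 8.20%. The label D3V, a part of the ventricles, held 6, 9 and 9 spots, with medians of 7.60%, 6.42% and 6.80%. The entorhinal area (ENTl) held 16, 31 and 30 spots, with medians of 6.39%, 5.87% and 6.62%, below OLF in CON and RES.

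**Figure D2:**
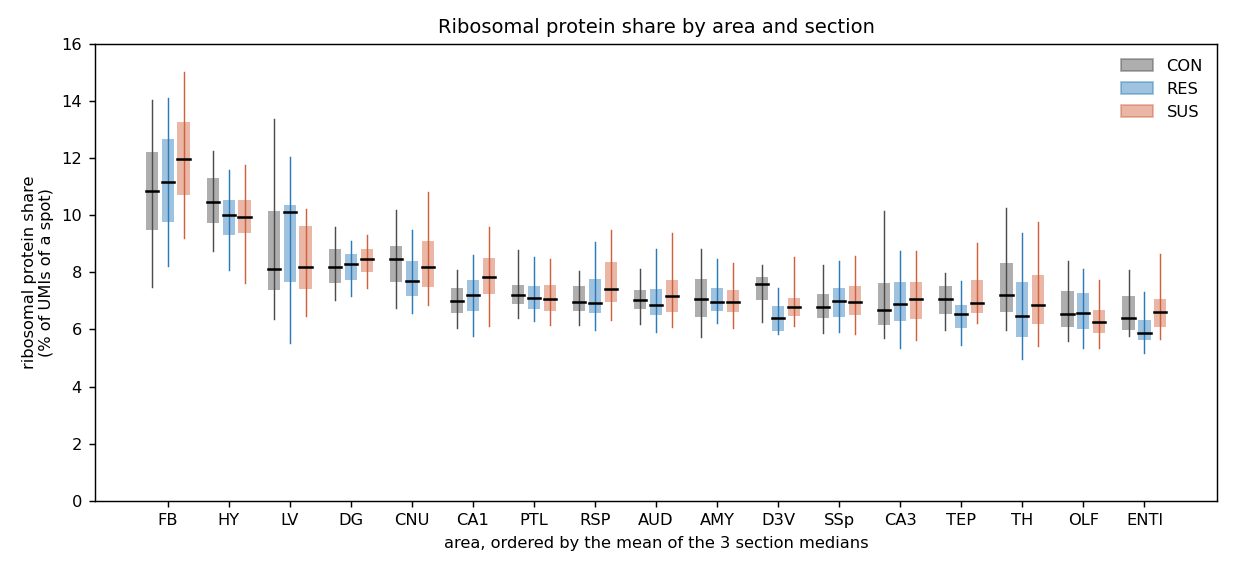
For each area and section the black line is the median ribosomal protein share, the box runs from the first to the last quartile and the thin line from the 5th to the 95th percentile of spots. Among the 14 areas with at least 20 spots in every section, FB and HY stand above the others in CON, RES and SUS; LV, D3V and ENTl have fewer, and LV lies above HY in RES.

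The hippocampus was not uniform. CA1 and CA3, its pyramidal fields, had section medians of 6.70% to 7.84%, and DG lay above both in every section, at 8.18% to 8.45%. TH had the widest spread of spots among the 8 larger regions other than FB. Its 5th and 95th percentiles were 5.99% and 10.2% (CON), 4.97% and 9.39% (RES), and 5.41% and 9.77% (SUS).

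The upper end of the distribution was held mostly by FB. Among the 5% of spots with the highest ribosomal protein share, FB gave 102 of 144 in CON (70.8%), 124 of 142 in RES (87.3%) and 128 of 142 in SUS (90.1%), while FB made up 11.8%, 10.1% and 9.40% of all spots. HY gave 36 of 144 for CON, 11 of 142 for RES (7.75%) and 9 of 142 for SUS (6.34%), against 10.4%, 10.3% and 10.4% of all spots, so its part of these spots exceeded its part of the section in CON alone. Among the 5% with the lowest share, TH gave 32 of 144 in CON (22.2%), 96 of 142 in RES (67.6%) and 69 of 142 in SUS (48.6%), against 21.4%, 19.8% and 18.7% of all spots. OLF gave 25.7%, 12.7% and 31.0% of the lowest spots, against 6.21%, 6.36% and 7.61% of all spots. Most of the lowest spots of RES were thus thalamic, and those of CON were not.

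Depth moved with the ribosomal protein share inside most areas. The relation was described by Spearman's rank correlation over the spots of an area in a section, for the 44 such groups of at least 20 spots. Spots of a group share a library and a piece of tissue, so no p-value is given. The correlation with UMIs was negative in 39 of 44 groups, from -0.750 to 0.148 with a median of -0.298. The correlation with the number of genes seen was negative in 41 of 44 groups, from -0.751 to 0.114 with a median of -0.346. Spots with fewer UMIs and fewer genes thus tended to have a higher ribosomal protein share in the same area.

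CA3 had the steepest relation to depth, with correlations of -0.736 (CON), -0.750 (RES) and -0.745 (SUS). In the third of CA3 spots with the fewest UMIs the median share was 7.68%, 7.51% and 7.76% in CON, RES and SUS, and in the third with the most UMIs it was 6.08%, 5.91% and 6.12%. These intervals did not overlap in any section. The mitochondrial share fell alongside, from 15.5% to 6.52% in CON, from 15.2% to 6.04% in RES and from 10.2% to 5.58% in SUS, and its part in the result was not tested. CA1 behaved likewise, with correlations of -0.433, -0.660 and -0.652, and medians of 7.21%, 7.89% and 8.41% in the third with the fewest UMIs against 6.64%, 6.38% and 6.95% in the third with the most.

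DG, the remaining hippocampal field, had a weak relation, with correlations of -0.290, -0.114 and -0.178. In HY the correlation was near 0, at -0.00379 in CON, 0.0559 in RES and -0.106 in SUS. CNU changed sign with the section, at 0.148, -0.231 and 0.0211. Areas with a high share were therefore not alike in this respect, since FB, the highest of all, had correlations of -0.477, -0.426 and -0.630.

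FB and HY differed in depth as well as in share. The median depth of FB was 3701 UMIs (CON), 3522.5 (RES) and 5599 (SUS), the lowest of the 14 areas in each section, while HY had 15928.5, 11022 and 15228.5. Inside FB the share fell with depth, from 11.7% (CON), 12.3% (RES) and 13.3% (SUS) below 2500 UMIs to 9.90%, 10.3% and 11.8% at 5000 to 7500 UMIs. Shallow spots of Isocortex and TH did not reach these levels. Between 2500 and 5000 UMIs, FB had 11.4%, 11.3% and 13.2% over 109, 119 and 87 spots, whereas Isocortex had 8.82%, 9.36% and 8.16% over 8, 15 and 43 spots and TH had 8.56%, 8.08% and 8.36% over 36, 24 and 3 spots. HY stayed between 9.40% and 11.3% below 10000 UMIs and between 9.66% and 11.5% above, over all 3 sections.

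**Figure D3:**
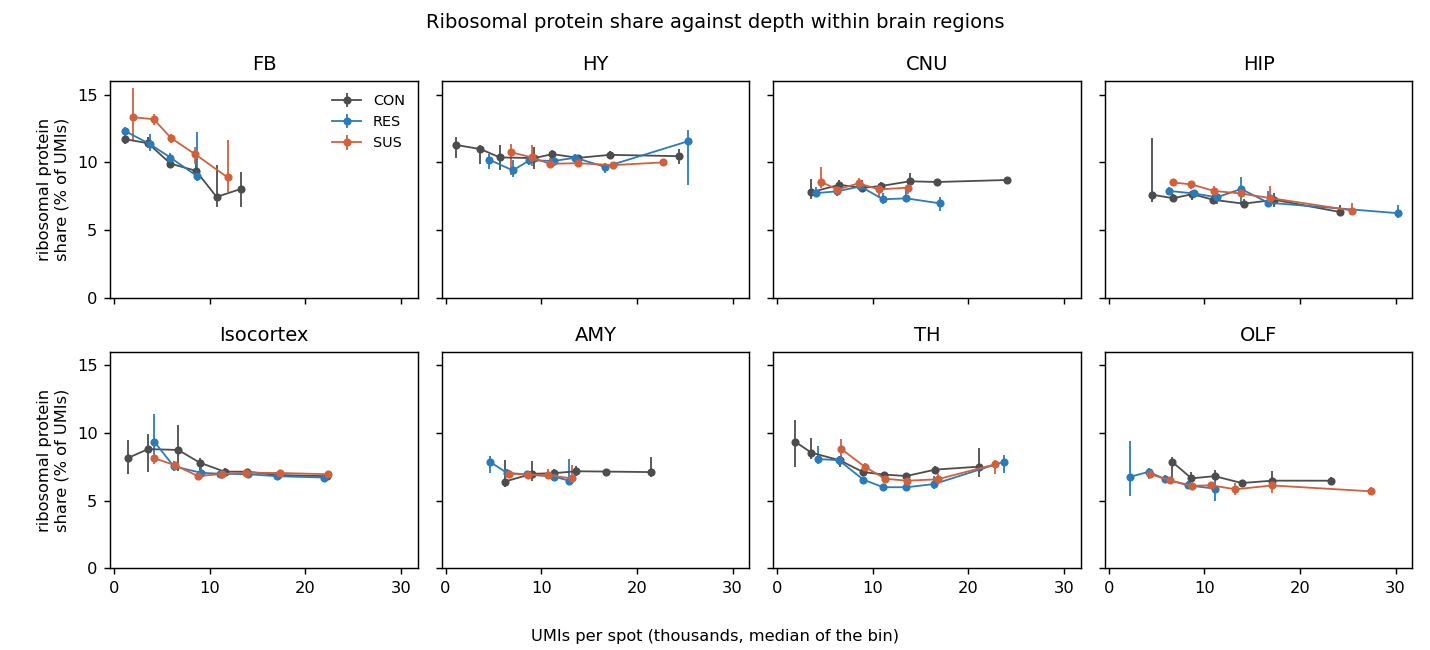
Median ribosomal protein share in percent of UMIs against median depth in UMIs (axis in units of 1000), in depth bins of at least 6 spots within each of the 8 larger regions (2500 UMIs wide up to 15000, then 15000 to 20000 and above 20000); error bars are 95% intervals of the median over spots. FB falls steeply with depth in CON, RES and SUS, HY stays between 9.40% and 11.5% throughout, and Isocortex, TH and OLF fall mainly at the shallow end.

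At like depth, 10000 to 15000 UMIs, HY and not FB had the highest share. HY medians were 10.4%, 10.2% and 9.93% in CON, RES and SUS over 74, 133 and 96 spots. FB had 7.82%, 8.76% and 9.19%, over only 17, 5 and 15 spots, since few FB spots were that deep. CNU had 8.36%, 7.26% and 8.09%, and TH the lowest level of the 10 areas with at least 20 such spots in every section, at 6.91%, 6.00% and 6.52%. OLF, with too few such spots in RES to be among these 10, lay lower still, at 6.49%, 5.83% and 6.04% over 49, 10 and 47 spots. ENTl also lay below TH in each section, at 6.50%, 5.62% and 6.33% over 9, 10 and 13 spots. The highest and the lowest mean of the 10 areas, HY and TH, differed by 3.67 percentage points. In the same spots the correlation with UMIs was negative in 19 of 35 groups, with a median of -0.0182, and the correlation with genes seen was still negative in 26 of 35, with a median of -0.210.

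The relation to the mitochondrial share differed between sections. Taken as percentages of 1 total, a large value of either leaves less room for the other; that they share a total is assumed here and in the share of non-mitochondrial UMIs. The correlation was negative in 13 and positive in 31 of the 44 groups, from -0.399 to 0.883 with a median of 0.178. By section the medians over areas were -0.0910 for CON, 0.120 for RES and 0.441 for SUS, and 9 of 14 groups were negative in CON against 3 of 15 in RES and 1 of 15 in SUS. Of 14 areas, 11 had their lowest correlation in CON, 10 their highest in SUS, and 8 rose in the order CON, RES, SUS.

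These 8 were AUD, SSp, PTL, RSP, AMY, CNU, CA3 and FB. AUD had correlations of -0.288 (CON), 0.325 (RES) and 0.589 (SUS), and SSp had -0.332, 0.0970 and 0.396. CNU went from -0.399 to 0.236 and 0.405, and AMY from -0.348 to -0.0692 and 0.216. In CA1 and CA3 the relation was positive in every section, at 0.630, 0.824 and 0.703 in CA1 and at 0.543, 0.681 and 0.883 in CA3. HY was negative in CON and RES, at -0.174 and -0.350, and 0.107 in SUS. Among spots of 10000 to 15000 UMIs the median over areas was -0.0296 in CON, 0.0340 in RES and 0.365 in SUS. No difference between sections in these relations was tested, since each condition had 1 section. The red blood cell share showed no common direction, with the correlation negative in 22 of 44 groups and a median of 0.00624.

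Ribosomal protein share changed gradually in space. Inside an area, each spot was set against the mean of at least 3 adjoining spots of the same area. This correlation was positive in 41 of 42 groups of 14 areas in 3 sections, with a median of 0.700. It was highest in TH, with a median of 0.839 over sections, and lowest in DG, at 0.286, where the RES section gave -0.0545. FB, at 0.431, was also less smooth than cortex.

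Distance to the fiber tracts went with the share in the cortex. One step is the spacing of adjoining spots. Isocortex spots 1 step from the nearest FB spot had medians of 8.36%, 8.48% and 8.19% in CON, RES and SUS, those 2 steps away 7.67%, 7.72% and 7.78%, those 5 steps away 6.96%, 7.09% and 7.19%, and those 10 steps away 6.64%, 6.77% and 6.69%. The 3 sections followed nearly the same curve up to 10 steps and parted beyond, with medians of 7.43%, 6.29% and 6.82% over 17, 40 and 26 spots at 13 steps. Depth also rose from the first to the second step, from 11018 to 15735.5 UMIs in CON, from 10396 to 15053 in RES and from 14280.5 to 18381.5 in SUS. Among Isocortex spots of 10000 to 15000 UMIs, those 1 or 2 steps from FB had 7.80%, 8.15% and 8.27%, and those 5 or more steps away 6.96%, 6.74% and 6.77%, with intervals that did not overlap in any section.

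Thalamus showed a similar edge, at 8.90%, 7.62% and 8.39% 1 step from FB and 7.07%, 6.53% and 6.94% 5 steps away. At 10000 to 15000 UMIs few TH spots lay within 2 steps of FB, with 7.60% over 6 spots in CON and 6.78% over 8 in RES, whose intervals overlapped those of spots 5 or more steps away, and 7.90% over 10 in SUS, whose interval did not. In CNU the share fell from 8.53% to 8.25% in CON between 1 and 5 steps, from 8.42% to 7.30% in RES and from 9.70% to 7.99% in SUS. HIP, the hippocampal fields together, did not follow this course, with 6.51%, 7.64% and 8.55% at 1 step, 6.66%, 6.14% and 6.81% at 2 steps and 7.34%, 7.92% and 8.13% at 5 steps. HY did not follow it either, with 10.29%, 8.45% and 10.43% at 1 step, 10.61%, 9.72% and 9.66% at 5 steps and 10.32%, 10.02% and 10.12% at 10 steps. Within FB the share was higher in core spots, those with all 6 neighbours in FB, than in spots with 3 such neighbours. Core spots had medians of 11.4%, 12.2% and 12.4%, and those with 3 such neighbours 9.36%, 9.63% and 11.3%. The core spots were also shallower in CON and RES, at 2738.5 against 5616.5 UMIs and 2505 against 5177, and close in SUS, at 5374 against 5876. The course between was not even. Spots with 2 FB neighbours had 10.1%, 10.4% and 10.8% over 11, 22 and 16 spots, above those with 3 in CON and RES. In SUS, spots with 5 FB neighbours had 12.8%, above the core.

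**Figure D4:**
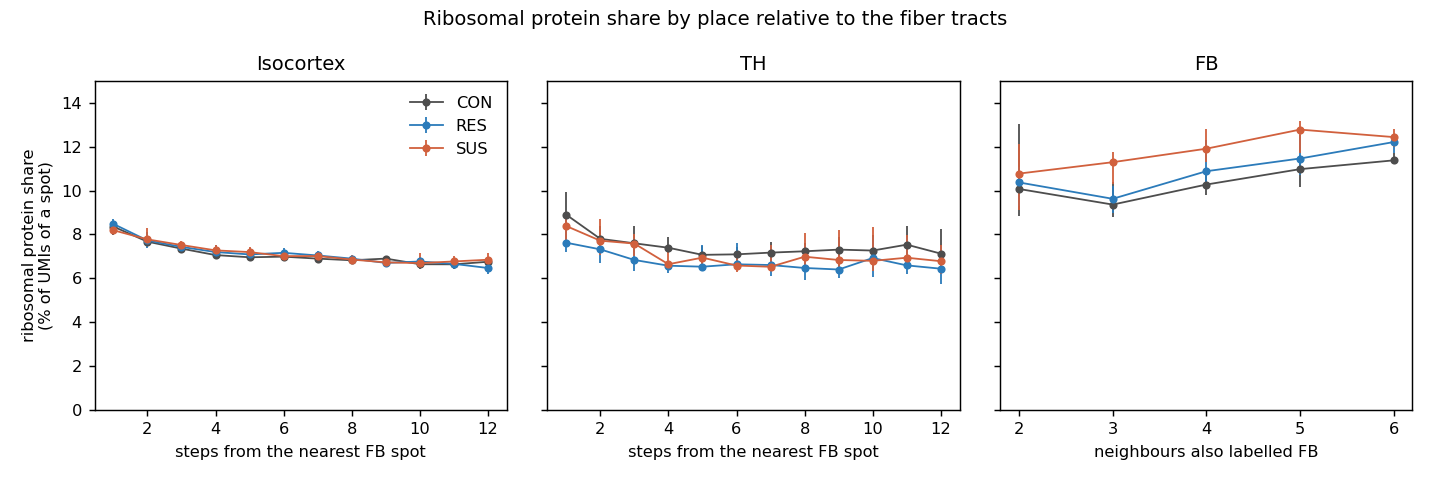
Median ribosomal protein share in percent of UMIs against the number of grid steps from the nearest FB spot in Isocortex and TH, and against the number of neighbours also labelled FB within FB; error bars are 95% intervals over spots. In Isocortex the CON, RES and SUS curves fall together from above 8% beside the tracts to below 7% at 10 steps, and in FB all 3 are lower at 3 than at 6 FB neighbours.

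The outer margin of the cortex set SUS apart. Isocortex spots on the margin of the tissue had medians of 6.89% (6.68 to 7.14) in CON, 7.06% (6.68 to 7.49) in RES and 8.14% (7.77 to 8.43) in SUS, and those 2 steps inside had 6.71%, 6.54% and 6.53%. Margin spots were shallower than those 2 steps inside in each section, at 12463 against 17187 UMIs (CON), 8130.5 against 15247 (RES) and 5541 against 13827.5 (SUS), and their mitochondrial share was higher, at 15.6% against 11.5%, 15.6% against 8.56% and 15.8% against 6.20%. The part of depth and of the mitochondrial share in this difference was not tested.

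Section medians of the 8 larger regions were then set against CON, with an interval that runs from the least to the greatest difference the intervals of both medians allow. In RES, 5 of 8 regions lay below CON, and the interval lay wholly below 0 in 3. The difference of RES minus CON was -0.768 percentage points in CNU (-1.06 to -0.373), -0.732 in TH (-0.969 to -0.480) and -0.469 in HY (-0.837 to -0.149). No region had an interval wholly above 0 in RES. At 10000 to 15000 UMIs the RES values were 7.26% against 8.36% in CNU and 6.00% against 6.91% in TH, with intervals still below 0, while in HY they were 10.2% against 10.4% with an interval of the difference of -0.718 to 0.155. The HY difference was -0.521 within depth bins and -0.448 (-0.802 to -0.115) of non-mitochondrial UMIs. Within depth bins CNU differed by -0.638 and TH by -0.678, but RES was not below CON at every depth. In CNU it lay above at 7500 to 10000 UMIs, at 8.21% against 8.10%. In TH it lay above at 5000 to 7500 UMIs (8.00% against 7.99%) and above 20000 (7.89% against 7.52%). In the other bins of both regions RES lay below CON. Isocortex, AMY, OLF, HIP and FB had intervals that included 0 in RES. Inside Isocortex, TEP differed by -0.505 (-0.908 to -0.108) and SSp by 0.227 (0.00720 to 0.453). The SSp interval included 0 at 10000 to 15000 UMIs (-0.305 to 0.467) and of non-mitochondrial UMIs (-0.220 to 0.338), and that of TEP stayed below 0 in both. OLF was a case apart in depth, with a median of 5542 UMIs in RES against 15669 in CON, and its difference of 0.00813 percentage points over all spots became -0.706 within depth bins, a value that rests on bins with a summed weight of 38 spots, where the sections held 179 and 180. Of non-mitochondrial UMIs, Isocortex of RES also lay below CON, at 7.64% against 7.87%, with an interval of -0.366 to -0.0821.

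In SUS, 5 of 8 regions lay below CON as well, but the regions parted in both directions, with 3 intervals below 0 and 2 above. FB was higher by 1.13 percentage points (0.486 to 1.67) and HIP by 0.700 (0.398 to 1.14), whereas HY differed by -0.519 (-0.881 to -0.191), TH by -0.336 (-0.596 to -0.111) and OLF by -0.304 (-0.538 to -0.0844). Depth bins gave -0.192 in TH and -0.583 in OLF. Among the hippocampal fields CA1 differed most, with 7.84% in SUS against 6.99% in CON, a difference of 0.859 (0.489 to 1.20), while CA3 and DG had differences of 0.356 and 0.274 with intervals that included 0. CA1 of SUS and CON had nearly the same depth, at 10485 and 10489.5 UMIs, but mitochondrial shares of 7.34% and 10.8%. The HIP difference was not even over distance from FB. At 1 step HIP had 8.55% in SUS against 6.51% in CON, with 11608 and 14870 UMIs, and at 2 steps 6.81% against 6.66%, with 15146 and 10835 UMIs, so that the deeper spots lay at 1 step in CON and at 2 steps in SUS. The part of this shift in the HIP and CA1 differences was not tested. With the share taken of non-mitochondrial UMIs, the HIP difference was 0.384 with an interval of -0.0522 to 0.891, that of CA1 was 0.523 (-0.0601 to 0.995) and that of CA3 was -0.0323. In that reading 6 of 8 regions had intervals below 0 and 1, FB, above: Isocortex had a difference of -0.221 (-0.364 to -0.0706) where it was 0.0967 of all UMIs, AMY -0.237, CNU -0.423, TH -0.595, OLF -0.460 and HY -0.398. Inside Isocortex, RSP of SUS was higher than CON by 0.439 (0.00894 to 0.907) of all UMIs, with intervals that included 0 at 10000 to 15000 UMIs (0.716, -0.0487 to 1.51) and of non-mitochondrial UMIs (0.237, -0.168 to 0.823). At 10000 to 15000 UMIs HIP had 7.78% in SUS against 7.03% in CON (difference 0.208 to 1.18), while FB had a difference of 1.37 percentage points over 15 and 17 spots, with an interval of -0.599 to 3.78. FB of SUS was deeper than that of CON over all spots, and with FB spots compared within depth bins the SUS value was higher by 1.72 percentage points. With mitochondrial UMIs left out, FB still differed by 0.984 (0.394 to 1.85).

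**Figure D5:**
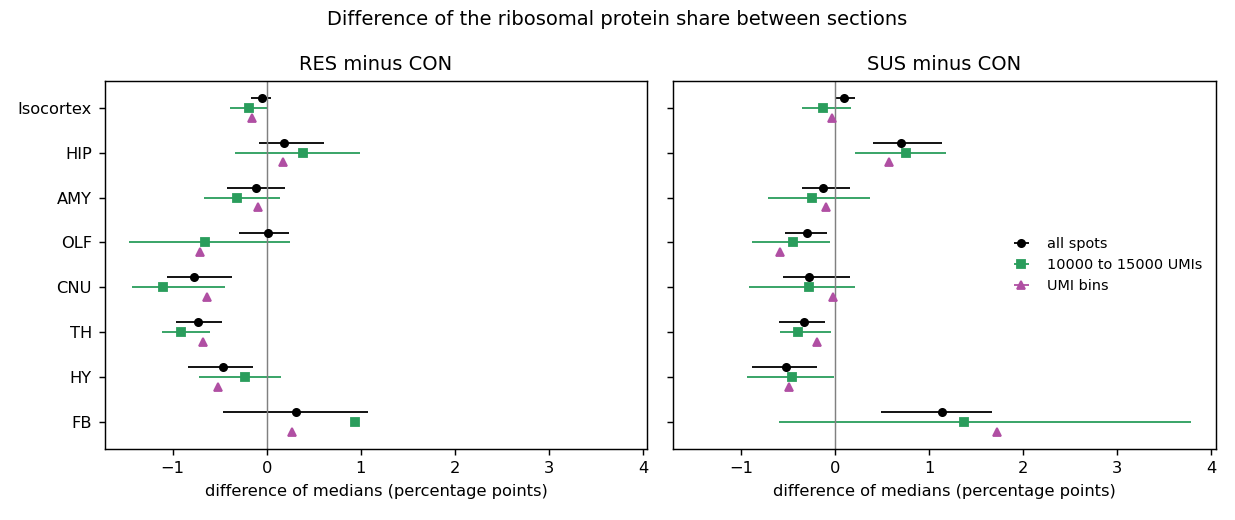
Difference of the median ribosomal protein share from CON in percentage points, for RES and SUS in 8 regions, over all spots, over spots of 10000 to 15000 UMIs, and as a weighted mean over depth bins; bars run from the least to the greatest difference that the 95% intervals of both medians allow, and are not drawn for the depth bins or for FB in RES at matched depth (5 spots). TH and CNU lie to the left of 0 in RES under all 3 readings, and FB and HIP to the right in SUS.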

How the data were processed

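For 3 mouse brain sections (CON, RES and SUS, 1 each), the deposited spot table gave, as made by the authors, the count of UMIs, the count of genes seen, the percent of UMIs on ribosomal, mitochondrial and red blood cell genes, and the area labels. No source used here gives the gene lists or the total behind the percentages. Reads were processed by the authors with the ST Pipeline on mm10 and with Seurat; the submitters' notes also name bcl2fastq, cutadapt and Space Ranger 1.0.0. Grid positions came from the deposited slide tables. The image scale factors were not used.

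No spot was removed. Medians with 95% order-statistic intervals, differences, Spearman's rank correlation and grid distances were computed in Python 3.11.15 with numpy 2.4.6, pandas 2.3.3 and scipy 1.17.1, and plots with matplotlib 3.10.9. The functions were tested on simulated data. Groups of at least 20 spots were used for relations and for the order of areas. The names AMY and HIP stand for the labels CTXsp and Hip. All 17 areas are named. No test between conditions was made, because each had 1 section. Mean ± SD was taken over the 3 sections. Intervals cover the sampling of spots only. Alternatives were the mean, a minimum of 1000 UMIs, spots of 10000 to 15000 UMIs, no edge spots, the share of non-mitochondrial UMIs, equal weight of regions, Pearson's r and leaving out a section. Differences within depth bins, all 2500 UMIs wide, were added after seeing the data. The measure, areas and depth window were chosen with earlier results of these data known.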

Additional observations from a re-analysis of the deposited data

Results flagged for a closer look

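In the SUS section the ribosomal protein share departed from CON in opposite directions in different regions. The difference of medians was 0.700 percentage points in HIP and 1.13 in FB, both with intervals above 0. The HIP interval included 0 for the share of non-mitochondrial UMIs, at 0.384 (-0.0522 to 0.891), and the FB interval did so at 10000 to 15000 UMIs, at 1.37 (-0.599 to 3.78). It was -0.304 in OLF, -0.336 in TH and -0.519 in HY, all with intervals below 0. The difference between these regions was not tested, since each condition had 1 section and spots are not replicates.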

How the results depend on the processing

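The median over all spots, 7.42%, was 7.98% as a mean, 7.13% at 10000 to 15000 UMIs, 8.29% of non-mitochondrial UMIs and 8.05% with the 8 regions weighted equally, and ran from 7.37% to 7.49% when a section was left out. Of non-mitochondrial UMIs, RES differed from CON by -0.393 and SUS by -0.299 percentage points, against -0.203 and -0.0245 of all UMIs. The SUS difference was above 0, at 0.00547 from 1000 UMIs, 0.0460 with equal regions and 0.0937 over depth bins, all inside its interval of -0.180 to 0.115. By the 14 areas, 8 lay below CON in RES and 7 in SUS. Over all spots the highest and lowest of 14 areas, FB and OLF, differed by 4.88 percentage points. At 10000 to 15000 UMIs those of 10 areas, HY and TH, differed by 3.67. FB and OLF were not among these 10, since neither had at least 20 such spots in every section. The change therefore also reflects which areas were compared. At that depth the groups with a negative correlation fell to 19 of 35 for UMIs and 26 of 35 for genes, where fewer groups had enough spots. Without a section, of 29 or 30 groups, they were 25 to 28 (86.2% to 93.3%) and 26 to 29 (89.7% to 96.7%), and for the mitochondrial share 4 to 12 (13.3% to 41.4%), lowest without CON. Of non-mitochondrial UMIs, 6 of 44 groups were negative with the mitochondrial share. The cause was not tested for any of these changes. Of the 42 area medians, 19 moved by more than their interval at 10000 to 15000 UMIs, 15 as means and 42 of non-mitochondrial UMIs. Of 16 region differences, 4 moved by more than theirs at 10000 to 15000 UMIs, 4 over depth bins, 3 of non-mitochondrial UMIs and 0 as means. No paired analysis was possible because each condition had 1 section, and depth limits FB, with 17, 5 and 15 spots at 10000 to 15000 UMIs.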
